A study of Mus musculus with 8 samples.

Results

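CDGC1 and CDGC6 are 2 mouse stem cell lines that were grown out of nascent teratoma cells in the testis of new-born Dnd1-deficient mice. By their labels they share the genotype (Dnd1ter/ter), the strain (129Sv with the Oct4deltaPE-GFP reporter transgene) and the passage range (15 to 18). The members were chosen by sample title, as the 2 libraries titled CDGC1-P3-9 and the 2 titled CDGC6-P5-6, which are 4 of the 8 RNA libraries of the series. Each line is a single derived line, so a difference between them is a difference between these lines and not between groups of tumours or animals. The labels do not say whether the libraries of a line came from separate cultures, and p-values then measure only the spread between these libraries. The 2 control libraries were from E14tg2a, a wild-type 129/Ola embryonic stem (ES) cell line at passages 10 to 12, and serve here to place both lines. The 2 remaining libraries were from Dnd1-KD ES cells of the same strain and passages as the control and enter no comparison tested here. They enter the estimate of the spread, the joining of gene symbols and the filter on which genes were tested. Their medians are also given for a region of chromosome 13. Every culture was kept in serum with LIF, the cytokine that holds mouse ES cells in self-renewal.

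Mouse ES cells in serum and LIF are known as naive. They express the general pluripotency factors POU5F1, SOX2 and NANOG together with a second layer of naive factors such as ESRRB, KLF4 and TFCP2L1, which is lost when the embryo implants. Cells of the implanted epiblast keep POU5F1, switch on genes such as Fgf5 and Otx2, and later, under NODAL and WNT signals, begin the primitive streak with Eomes, T and Mixl1. DND1 is an RNA-binding protein of germ cells, and testicular teratomas in mice that lack it are known to start from germ cells that return to a pluripotent state.

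Expression is given as FPKM, that is fragments scaled to transcript length and library size. Differences are log2 differences of FPKM + 1, CDGC1 minus CDGC6, with their standard error (SE), and a gene was called when the Benjamini-Hochberg adjusted p of limma's moderated test over all 11891 units tested was under 0.05. A unit is a gene symbol, or several symbols that the tables joined into 1 entry. A value of exactly 0 in these tables can be a failed estimate, so such a gene is said to be listed at 0 and gets no fold change when both libraries of a line are at 0. The fragments implied by the files' intervals came to 10.7 M to 18.0 M a library (M for 1e+06), with 11.9 M and 13.3 M in CDGC1 and 13.1 M and 12.8 M in CDGC6. The 2 libraries of a line were further apart than those of the control: the ratio between them went beyond the files' intervals in 56.1% of units in CDGC1 and 47.5% in CDGC6, against 17.9% in control. All 18 core pluripotency genes listed, the defining markers of the labelled cell type, reached at least 1 FPKM in a library of the lines. That count pools CDGC1 and CDGC6. It did not hold for CDGC1 alone, where Dppa4 was under 1 FPKM in both libraries. The summed level of the 18 genes was 2262 to 2370 FPKM in CDGC1 and 2895 to 3248 FPKM in CDGC6.

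The lines differed widely. Of the units tested 5609, or 47.2%, were called between them, 2739 higher in CDGC1 (23% of all tested) and 2870 lower (24.1%), with a median difference over all units of -0.02. With at least a 2-fold change, 1661 were called (14%), 624 higher and 1037 lower in CDGC1. The largest changes were nearly all losses in CDGC1, since 138 units were lower by at least 8-fold and 13 were higher by that much. Units listed at 0 in both libraries of a line were kept in these fold counts, and the size of their change is uncertain. CDGC6 lay closer to the control than CDGC1 did. Against control 6007 units (50.5%) were called in CDGC1, 1931 of them by at least 2-fold, and 2225 units (18.7%) were called in CDGC6, 395 of them by at least 2-fold. These 2 counts share the control libraries. The median absolute log2 difference from control over all units was 0.39 in CDGC1 and 0.22 in CDGC6.

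**Figure D1:**
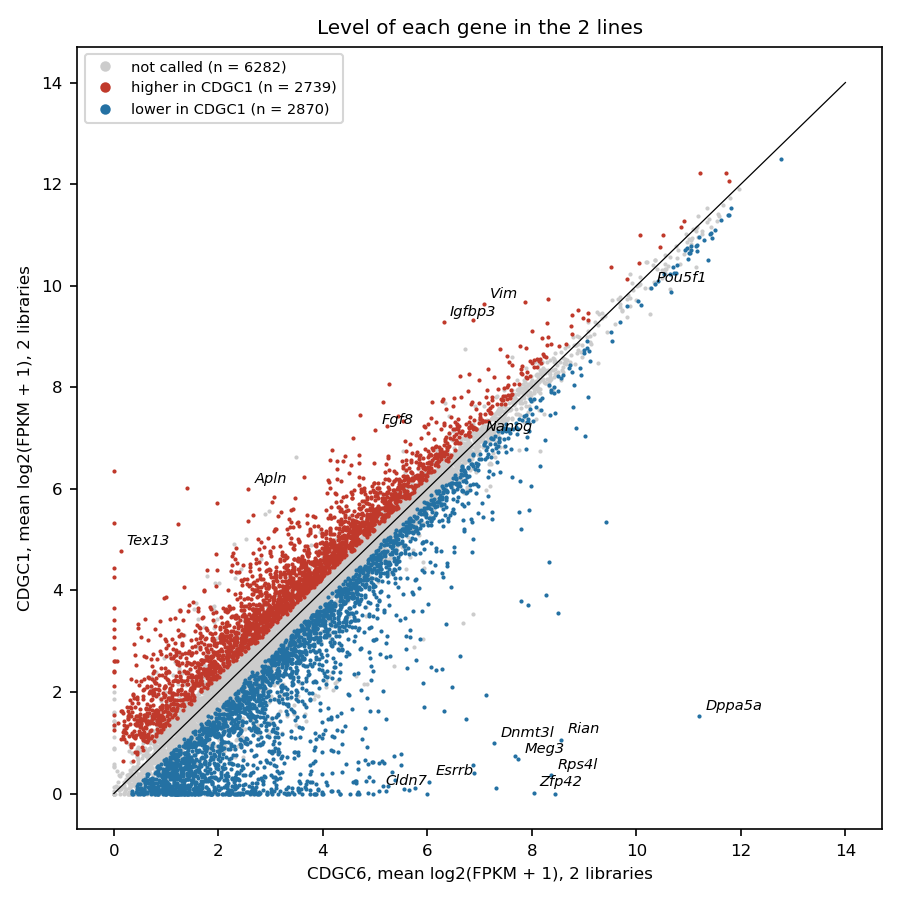
Mean log2(FPKM + 1) of each tested unit in the 2 CDGC6 libraries (x axis) and the 2 CDGC1 libraries (y axis), coloured by whether limma called it; the line marks equal levels. A tail of genes that are high in CDGC6 and near the floor in CDGC1, with Dppa5a, Zfp42, Rps4l and Rian in it, is longer than the one on the other side (138 against 13 units past 8-fold).

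Pou5f1 and Nanog were expressed at high levels in both lines, while some other core pluripotency genes and nearly all naive genes were lower in CDGC1. Of 18 core pluripotency members 2 were higher and 7 lower in CDGC1 (median -0.30), a share called close to that of all units. Pou5f1, the central POU factor, was at 951 and 1027 FPKM in CDGC1, 1125 and 1339 in CDGC6 and 944 and 934 in control, and its difference between the lines did not pass (-0.31 ± 0.11 SE, adjusted p = 0.0632). Nanog, the homeobox factor, was at 137 and 122 FPKM in CDGC1 and at 129 and 126 in CDGC6 (0.02 ± 0.19, adjusted p = 0.937), so that the libraries of the lines overlapped. Sox2, the partner of POU5F1, was at 75.1 and 79.6 FPKM in CDGC1 and at 139 and 165 in CDGC6, with control at 158 and 167. Both CDGC1 libraries were below all libraries of CDGC6 and control (-0.96 ± 0.14, adjusted p = 0.00217). The larger losses in the core list were of Dppa4 (-6.32 ± 0.28, adjusted p = 2.61e-05) and Dppa2 (-4.94 ± 0.20, adjusted p = 2.06e-05), chromatin proteins that are known to act as a pair, and of Gdf3, a NODAL-like ligand (-3.28 ± 0.15, adjusted p = 3.41e-05). Dppa4 was at 0.317 and 0.657 FPKM in CDGC1 against 85.6 and 160 in CDGC6 and 110 and 112 in control. Among the members higher in CDGC1 was Lin28b (0.73 ± 0.08, adjusted p = 0.000823), which blocks let-7 maturation.

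All but 1 of the naive pluripotency units were lower in CDGC1. The list holds 27 genes that make 26 tested units, of which 25 were lower and none higher (median -3.48, against -0.02 over all units). The shares over all units were 24.1% lower and 23% higher. The median of the naive units against control was -3.82 in CDGC1 and -0.32 in CDGC6. Zfp42, also called Rex1 and a standard marker of the naive state (chromosome 8, 43295067 to 43307009 in mm10), was at 0.022 and 0 FPKM in CDGC1, at 223 and 304 in CDGC6 and at 335 and 352 in control (-8.02 ± 0.17, adjusted p = 3.26e-06). The joint unit of Dppa5a and Ooep, genes of ES cells and oocytes, was at 2.24 and 1.57 FPKM in CDGC1, 2024 and 2750 in CDGC6 and 2156 and 2418 in control (-9.68 ± 0.23, adjusted p = 5.04e-06), the widest gap of any named unit. For Zfp42 the CDGC6 libraries lay below both control libraries, for the joint unit they lay on either side of them, and for both units the CDGC1 libraries were far below all others. Esrrb, an orphan nuclear receptor, stood at 0.211 and 0.14 FPKM in CDGC1 and 56.2 and 74.6 in CDGC6 (-5.81 ± 0.17, adjusted p = 9.33e-06). Tdh, the threonine dehydrogenase on which mouse ES cells depend, was at 0.88 and 0.49 FPKM against 179 and 232 (-6.93 ± 0.18, adjusted p = 5.99e-06). The LIF-responsive factors were lower as well, Klf4 by a log2 difference of -3.67 ± 0.13 (adjusted p = 1.5e-05) and Tfcp2l1 by -3.92 ± 0.13 (adjusted p = 1.38e-05). Jam2, a junction protein, stood at 0.175 and 0.16 FPKM against 12.9 and 12.7. The unit that did not pass was the zinc finger gene Zscan10, at 35.2 and 34.9 FPKM in CDGC1 and 48.7 and 52.6 in CDGC6 (-0.52, adjusted p = 0.29). A less complete loss was seen for Klf5, at 24.4 and 21.4 FPKM in CDGC1 and 46.9 and 38.3 in CDGC6. Zscan10 and Klf5 were named after their values were seen.

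**Figure D2:**
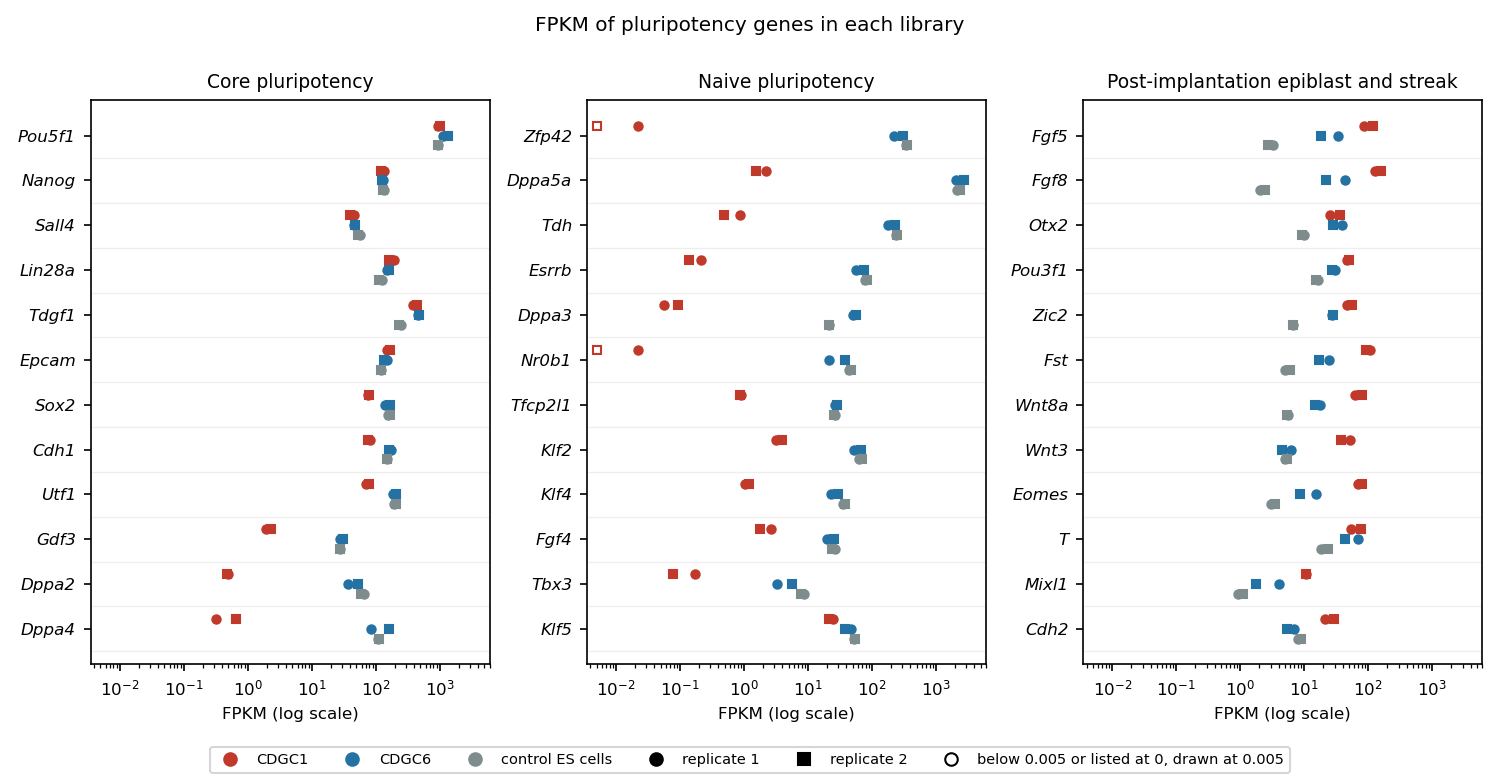
FPKM (log axis) of 12 genes in each of 3 classes in the single libraries of CDGC1, CDGC6 and control; genes were picked after their values were seen, Fgf5 and Dppa5a are joined with 1 other symbol, and open markers stand at the drawn floor. Naive genes separate CDGC1 from both other groups, Pou5f1 and Nanog do not, and for Fgf5, Fgf8, Zic2 and Eomes CDGC6 lies between control and CDGC1.

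Genes of the implanted epiblast were split between the lines. Of 26 formative and primed epiblast units 10 were higher and 10 lower in CDGC1 than in CDGC6, against 23% and 24.1% over all units. Their median was 0.05 between the lines, and their medians against control were 0.88 in CDGC1 and 0.83 in CDGC6. In each line 14 members were higher than control, while 9 were lower than control in CDGC1 and 2 in CDGC6. Otx2, the homeobox factor of the early post-implantation epiblast, was at 25.5 and 35.8 FPKM in CDGC1, 38.4 and 27.7 in CDGC6 and 10.1 and 9.3 in control, with no call between the lines (-0.11, adjusted p = 0.696). Higher in CDGC1 were Fst, an antagonist of ACTIVIN (107 and 90.9 against 24.1 and 17.1 FPKM, 2.22 ± 0.24, adjusted p = 0.000704), Wnt8a (63.3 and 79.3 against 17.9 and 14.7 FPKM, 2.06 ± 0.16, adjusted p = 0.000206) and the cadherin Cdh2 (21.5 and 28.8 against 6.81 and 5.34 FPKM, 1.88 ± 0.17, adjusted p = 0.00042). Fgf5, joined in the tables with 1700007G11Rik, was at 86.2 and 117 FPKM in CDGC1, 34.3 and 18 in CDGC6 and 3.29 and 2.73 in control (1.97, adjusted p = 0.00267). Its 3 groups did not overlap, with CDGC6 in the middle. Lower in CDGC1 were Lef1, a transcription factor of the WNT pathway (1.2 and 0.902 against 12.6 and 12.5 FPKM, -2.73 ± 0.11, adjusted p = 2.04e-05), the epithelial factor Grhl2 (0.867 and 1.69 against 14.7 and 15.4 FPKM, -2.84 ± 0.17, adjusted p = 8.13e-05) and Fgf15 (1.73 and 1.22 against 12 and 10.5 FPKM, -2.31 ± 0.14, adjusted p = 8.27e-05), which CDGC6 expressed above the 2.69 and 2.47 FPKM of control. Otx2 and Fgf5 were named after their values were seen.

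Several early primitive streak genes were higher in CDGC1, while the list as a whole was called about as often in either direction. Of 30 listed genes of the streak and mesoderm 19 were tested, 6 of them higher and 5 lower in CDGC1 (median 0.34). These shares are not far from the 23% higher and 24.1% lower over all units. Eomes, the T-box factor of the streak and endoderm (chromosome 9, 118478189 to 118486132), was at 68.4 and 80 FPKM in CDGC1, 15.4 and 8.47 in CDGC6 and 3.08 and 3.53 in control (2.59 ± 0.25, adjusted p = 0.000487). The growth factor gene Fgf8, which streak cells need for migration, was at 128 and 158 FPKM, 43 and 22.1 FPKM and 2.04 and 2.48 FPKM in the same order (2.16 ± 0.29, adjusted p = 0.00177). For both genes the order was CDGC1, CDGC6, control, with no overlap. Wnt3, which is known to start streak formation, was at 51.1 and 37.7 FPKM in CDGC1 and at 6.3 and 4.51 in CDGC6, where it lay in the range of control (2.82 ± 0.19, adjusted p = 0.000122). Mixl1 was higher too (10.6 and 10.8 against 4.03 and 1.77 FPKM, 1.65 ± 0.26, adjusted p = 0.00315). T, also called Brachyury, did not separate the lines (53.9 and 77.1 against 69.1 and 43.7 FPKM, adjusted p = 0.51) and was at 18.1 and 23.7 in control. Genes of later mesoderm were low in both lines: Msgn1, Mesp1, Tbx6 and Foxf1 stayed under 1 FPKM in all 4 libraries and were not tested. The called losses among streak genes were at low levels, for example Dll1, the Notch ligand, at 0.218 and 0.149 FPKM against 1.25 and 1.86.

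Genes of the anterior streak and node moved with single libraries. Foxa2, a forkhead factor of endoderm and node, stood at 8.15 FPKM in the first and 38.6 FPKM in the second CDGC1 library, and at 5.74 and 2.71 FPKM in CDGC6 (1.93, adjusted p = 0.052). Cer1, a secreted NODAL and WNT antagonist, was at 1.74 and 16.1 FPKM and at 2.62 and 0.534 FPKM (1.54, adjusted p = 0.18). Gsc, the organizer homeobox gene, was at 6.96 and 18.4 FPKM and at 4.1 and 1.59 FPKM (1.77, adjusted p = 0.022). In all 3 the second CDGC1 library was the highest and the second CDGC6 library the lowest of the lines, and the first libraries lay between. Lhx1 and Chrd showed the same order of libraries, Lhx1 with 3.51 and 14.1 FPKM in CDGC1 against 2.07 and 0.525 in CDGC6. Of the endoderm list 15 of 27 genes were tested, 4 higher and 4 lower in CDGC1 (median 0.35), close to the share of all units. Sox17, Afp, Ttr, Sox7 and Hnf4a, which mark formed endoderm, were under 1 FPKM or listed at 0 in every library of the lines. These genes, T and the later mesoderm genes were named after their values were seen.

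In the NODAL, WNT and BMP lists, which hold ligands, receptors, antagonists and targets, more members were higher than lower in CDGC1, against 23% higher and 24.1% lower over all units. Of 22 NODAL and ACTIVIN units 10 were higher and 4 lower (median 0.39), of 26 WNT units 14 and 5 (0.40), of 20 BMP units 9 and 4 (0.69) and of 22 FGF and ERK units 10 and 7 (0.18). With a 2-fold minimum the counts were 3 and 2 for NODAL, 5 and 2 for WNT and 6 and 3 for BMP, and 7 WNT units were higher with only the 4 libraries of the lines in the fit or without CDGC6 replicate 2. The ligand Nodal, named after its values were seen, was at 81.9 and 64.4 FPKM in CDGC1, 37.7 and 44.7 in CDGC6 and 39.5 and 37.3 in control (0.81, adjusted p = 0.010). Its receptor gene Acvr2a (9.43 and 9.15 against 3.52 and 3.33 FPKM, 1.22 ± 0.09, adjusted p = 0.000202), the processing protease Furin (0.90 ± 0.11, adjusted p = 0.00123) and Pmepa1, a target that dampens the pathway (23.5 and 21.2 against 7.18 and 5.89 FPKM, 1.64 ± 0.12, adjusted p = 0.000171), were higher as well. On the WNT side the ligands Wnt3, Wnt8a, Wnt11 (1.94 ± 0.20, adjusted p = 0.000605) and Wnt5b (0.97 ± 0.11, adjusted p = 0.000861) were higher together with the secreted antagonist Frzb, at 7.7 and 5.8 FPKM against 0.432 and 0.182. Axin2, a feedback target of WNT named after its values were seen, was at 16.7 and 12.9 FPKM in CDGC1 and 10.5 and 6.72 in CDGC6 (0.74, adjusted p = 0.0285). The BMP receptors Bmpr2 (1.06 ± 0.13, adjusted p = 0.00113) and Bmpr1a (0.73 ± 0.10, adjusted p = 0.00211) were higher, while the ligand Bmp4 was lower (1.32 and 1.02 against 10.3 and 11.2 FPKM, -2.45 ± 0.11, adjusted p = 2.82e-05). In the FGF list the ES cell ligand Fgf4 was lower (2.67 and 1.76 against 20 and 25.3 FPKM, -2.88 ± 0.24, adjusted p = 0.000284). The immediate early gene Fos (16.2 and 28.9 against 3.89 and 3.73 FPKM, 2.24 ± 0.30, adjusted p = 0.00165) and the ERK phosphatase Dusp5 (1.28 ± 0.17, adjusted p = 0.00156) were higher.

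The LIF arm went the other way, with 3 of 15 tested units higher and 9 lower in CDGC1 (median -0.49). Over all units 23% were higher and 24.1% lower. Klf4, Tfcp2l1 and Gbx2, which are among the lower units, are also on the naive list, so the 2 lists are not independent. Lifr, the receptor subunit for LIF, was at 1.74 and 1.95 FPKM in CDGC1, 5.3 and 5.03 in CDGC6 and 7.89 and 7.44 in control (-1.12 ± 0.09, adjusted p = 0.000253). All 3 groups were separate, with CDGC1 lowest. The STAT3 targets Bcl3 (1.06 and 1.75 against 13.3 and 17.9 FPKM, -2.79 ± 0.26, adjusted p = 0.00043) and Pim3 (-0.97 ± 0.08, adjusted p = 0.000304) were lower too. The ligand gene Lif itself was higher in CDGC1 (5.21 and 5.02 against 1.3 and 1.27 FPKM, 1.42 ± 0.11, adjusted p = 0.000211).

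**Figure D3:**
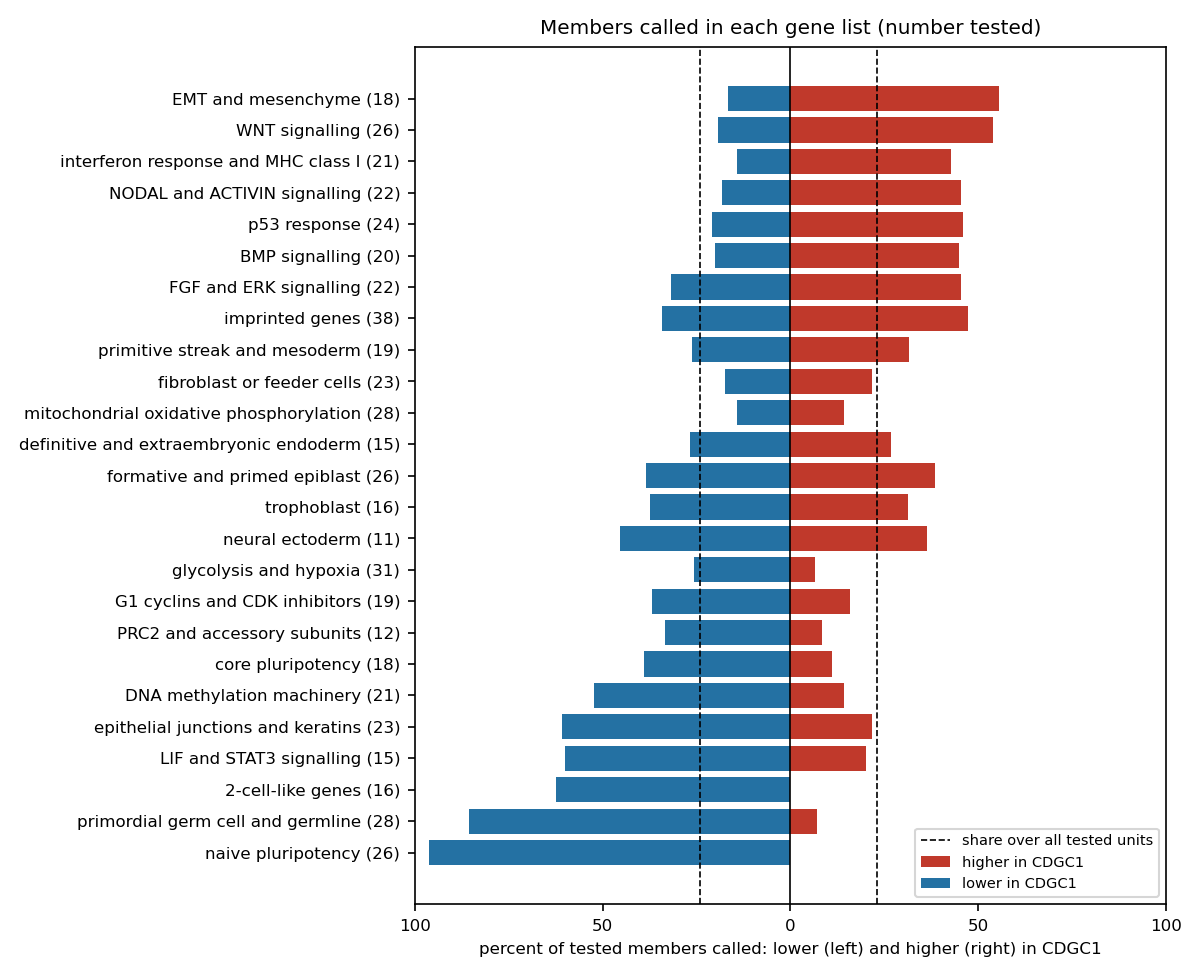
Percent of the tested members of each gene list (number in brackets) called lower (bars to the left) and higher (bars to the right) in CDGC1 than in CDGC6, for lists with at least 10 tested units; dashed lines mark the share over all tested units, 24.1% lower and 23% higher. Naive pluripotency with 25 of 26 units and germline genes with 24 of 28 reach furthest to the left, and the mesenchymal list with 10 of 18 furthest to the right.

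Most germline genes were lower in CDGC1 than in CDGC6. Of 34 listed genes 28 were tested, 24 lower and 2 higher (median -1.53), against 24.1% lower and 23% higher over all units. Dppa3, Prdm14 and Tex19.1 are also on the naive list, so the 2 lists are not independent. The germline units had medians against control of -1.76 in CDGC1 and -0.22 in CDGC6. In CDGC6 5 of them were higher and 6 lower than control. A filter of 5 FPKM, which leaves fewer genes tested, gave 11 lower between the lines. Ddx4, the germ cell RNA helicase also called Vasa (chromosome 13, 112598333 to 112652362), was at 0.0137 and 0.0221 FPKM in CDGC1, 9.62 and 11.8 in CDGC6 and 15.5 and 15.4 in control (-3.52 ± 0.12, adjusted p = 1.38e-05). Tdrd12, a tudor protein of the piRNA pathway, was at 0.0496 and 0.16 FPKM in CDGC1 against 30.6 and 38.9 in CDGC6, above the 22.3 and 20 of control (-5.01 ± 0.14, adjusted p = 7.18e-06). Meiotic cohesin genes were at like levels in CDGC6 and control and near 0 in CDGC1: Stag3 was at 0.175 and 0.274 FPKM against 7.61 and 7.64, and Rec8 at 0.0759 and 0.0612 against 4.27 and 4.79. Mael, a piRNA factor, Sycp3, of the synaptonemal complex, and Hormad1, of the meiotic chromosome axis, were listed at 0 in both CDGC1 libraries. Their CDGC6 levels were 6.77 and 7.51, 15.7 and 22.9, and 3.18 and 4.01 FPKM. Dppa3, also called Stella, a germ cell and oocyte gene that protects methylation, was at 0.0572 and 0.0923 FPKM in CDGC1 and at 49.9 and 56.7 in CDGC6, above the 21.5 and 21 of control (-5.66 ± 0.09, adjusted p = 1.28e-06). The membrane protein gene Ifitm3, also called Fragilis, was at 69.3 and 71.8 FPKM against 213 and 225 (-1.62 ± 0.10, adjusted p = 7.91e-05). The members that were not lower were Tfap2c, a factor of germ cell specification at 16.9 to 18.3 FPKM in the lines (adjusted p = 0.68), Nanos3 (adjusted p = 0.44), Tdrd7 (higher, 0.68) and Dnd1. Dnd1 was measured only jointly with its neighbour Hars, at 81.4 and 71.5 FPKM in CDGC1 and 60.1 and 63.4 in CDGC6 (0.30 ± 0.08, adjusted p = 0.0251), so its own level and the ter allele were not checked here. Hormad1, Tfap2c, Nanos3 and Tdrd7 were named after their values were seen.

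The promoter letters of the lower germline genes, which the contrast did not use, were read next. E-box (CACGTG, its own reverse complement) and E2F-type (GGCGGGAA, both strands) matches were searched in the 300 bases around each gene start (250 before, 50 after; RefSeq, GRCm38.p6), since the germline repressor complex PRC1.6 is known to carry MGA with MAX and E2F6, which bind such motifs. Neither motif contains the other, and both were chosen after the expression values were seen. Of the 24 lower members 20 had a promoter in the table, with a median of 20 CG pairs against 7 over all 27025 promoters. CACGTG was in 10 of the 20 (50%), against 7.24% of all promoters and 11.5% of the 9514 with at least 15 CG pairs. GGCGGGAA was in 2 (10.0%), against 2.24% of all promoters and 5.0% of those with at least 15 CG pairs. Both motifs were in 2 (10.0%), against 0.222% and 0.515% in the same order. Among all listed germline genes, lower or not, 27 had a promoter, and CACGTG was in 10 of them (37.0%). Of the lower naive genes, which share members such as Tex19.1 with the germline set, 16 had a promoter. CACGTG was in 2 of these (12.5%) and GGCGGGAA in none. These are descriptions of letters in a window and not of bound sites. Printed 5′ to 3′ in the direction of the gene, with the matches in capitals, are the 2 promoters that hold both motifs, Ddx4 (chr13:112652261-112652560, minus strand) and Hormad1 (chr3:95559427-95559726, plus strand), and 2 that hold the E-box alone, Mael (chr1:166238695-166238994, minus strand) and Stag3 (chr5:138280259-138280558, plus strand).
Ddx4: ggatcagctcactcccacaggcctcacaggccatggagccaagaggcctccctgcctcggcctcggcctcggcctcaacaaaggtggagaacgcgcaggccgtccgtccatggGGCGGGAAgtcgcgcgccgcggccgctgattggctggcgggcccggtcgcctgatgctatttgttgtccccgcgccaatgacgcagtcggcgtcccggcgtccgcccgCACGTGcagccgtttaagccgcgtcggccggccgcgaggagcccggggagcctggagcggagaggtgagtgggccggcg
Hormad1: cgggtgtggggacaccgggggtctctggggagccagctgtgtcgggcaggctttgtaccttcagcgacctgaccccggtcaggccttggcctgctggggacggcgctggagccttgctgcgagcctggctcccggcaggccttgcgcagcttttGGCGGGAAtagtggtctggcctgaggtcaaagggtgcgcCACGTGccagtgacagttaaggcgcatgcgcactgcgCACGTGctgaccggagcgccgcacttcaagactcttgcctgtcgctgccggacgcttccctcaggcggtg
Mael: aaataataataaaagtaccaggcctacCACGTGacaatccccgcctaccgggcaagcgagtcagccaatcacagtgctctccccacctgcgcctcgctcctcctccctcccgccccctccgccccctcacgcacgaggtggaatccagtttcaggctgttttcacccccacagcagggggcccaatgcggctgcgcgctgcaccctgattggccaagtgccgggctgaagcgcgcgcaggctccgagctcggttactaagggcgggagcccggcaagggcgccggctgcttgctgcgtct
Stag3: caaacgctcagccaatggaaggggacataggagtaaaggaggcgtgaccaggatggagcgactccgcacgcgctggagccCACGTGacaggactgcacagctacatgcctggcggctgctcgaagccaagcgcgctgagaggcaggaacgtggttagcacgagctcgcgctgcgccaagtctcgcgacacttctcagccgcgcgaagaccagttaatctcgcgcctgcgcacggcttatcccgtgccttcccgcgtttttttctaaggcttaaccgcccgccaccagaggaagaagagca

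The machinery of DNA methylation was lower in CDGC1 in 11 of 21 tested units and higher in 3 (median -0.42), against 24.1% and 23% over all units. Dnmt3l, the cofactor of the de novo methyltransferases (chromosome 10, 78042287 to 78063622, at a locus that overlaps another gene), was at 0.883 and 1.1 FPKM in CDGC1, 135 and 176 in CDGC6 and 282 and 264 in control (-6.29 ± 0.13, adjusted p = 3.26e-06). The methyltransferase Dnmt3b was at 144 and 180 FPKM in CDGC1 and 262 and 255 in CDGC6, with control at 136 and 106 (-0.68, adjusted p = 0.0155). The dioxygenases that remove methylation were lower too, Tet1 at 10.5 and 9.44 FPKM against 32.2 and 31.7 (-1.59 ± 0.14, adjusted p = 0.000331) and Tet2 at 0.25 and 0.312 against 4.09 and 5.44 (-2.16 ± 0.15, adjusted p = 0.000152). Zfp57, which guards methylation at imprinted regions, was at 13.8 and 26.7 FPKM in CDGC1, 65.3 and 90.9 in CDGC6 and 114 and 130 in control (-1.95, adjusted p = 0.00333). Higher in CDGC1 were the glycosylase Tdg, joined with Gm9855 (0.93 ± 0.07, adjusted p = 0.000185), Uhrf2 (0.79 ± 0.10, adjusted p = 0.00126) and Mbd2. Methylation itself was not measured. Of 12 PRC2 units 1 was higher and 4 lower, close to the share of all units, and the lower ones included the core subunit Eed (50.8 and 53.4 against 105 and 111 FPKM, -1.04 ± 0.06, adjusted p = 8.57e-05) and Mtf2 (-1.39 ± 0.06, adjusted p = 3.22e-05). Dnmt3b, Zfp57 and Mbd2 were named after their values were seen.

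Imprinted genes, of which normally 1 parental copy is active, differed between the lines, and the direction differed with the parental copy by counts, without a test. Of 38 tested units 18 were higher and 13 lower in CDGC1 (median 0.27), against 23% and 24.1% over all units. With a 2-fold minimum the balance turned, to 7 higher and 12 lower. Split after the values were seen by the copy each gene is known to be expressed from, the maternally expressed genes had 4 higher and 8 lower of 14 tested (18 listed; median -2.01) and the paternally expressed genes 12 higher and 5 lower of 21 tested (26 listed; median 0.55). Genes of the same region, such as Meg3, Rian and Mirg, were counted singly, so the members are not independent. The maternal noncoding RNAs of the Dlk1 to Dio3 region on chromosome 12 were near 0 in CDGC1. Meg3, also called Gtl2 (109540996 to 109571729), was at 0.122 and 1.29 FPKM in CDGC1, 218 and 208 in CDGC6 and 101 and 96.7 in control (-7.06 ± 0.32, adjusted p = 3.04e-05). Rian, joined with AF357359 (109603773 to 109661711), was at 0.75 and 1.49 FPKM, 363 and 389 FPKM and 88.4 and 77.4 FPKM in the same order (-7.50 ± 0.17, adjusted p = 4.55e-06), and Mirg (109734732 to 109749457) at 0.0321 and 0.103, 51.6 and 41.2, and 25.2 and 23.8 FPKM (-5.46 ± 0.14, adjusted p = 5.99e-06). For these 3 RNAs both CDGC1 libraries lay under and both CDGC6 libraries above the control. The paternally expressed Dlk1 of the region was also lower in CDGC1 (0.0183 and 0.0274 against 1.53 and 1.75 FPKM).

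Several other maternally expressed genes were lower in CDGC1 too. Igf2r, the receptor that clears IGF2 (chromosome 17, at a locus that overlaps another gene), was at 0.761 and 0.747 FPKM in CDGC1, 16.5 and 13.2 in CDGC6 and 16.9 and 17.6 in control (-3.17 ± 0.12, adjusted p = 1.8e-05). Grb10, a growth-restraining adaptor, was at 0.771 and 0.517 FPKM, 7.56 and 10.5 FPKM and 45.1 and 45 FPKM in the same order (-2.59, adjusted p = 7.38e-05). Cdkn1c, a CDK inhibitor, was at 0 and 0.0333 FPKM in CDGC1, 4.31 and 6.71 in CDGC6 and 32.6 and 29.8 in control (-2.65 ± 0.18, adjusted p = 0.000116). Phlda2, its neighbour on chromosome 7, was listed at 0 in both CDGC1 libraries and stood at 10.3 and 17.7 FPKM in CDGC6 and 56.5 and 57 in control. For Grb10, Cdkn1c and Phlda2 both lines were below control, with CDGC1 the lower. Several paternally expressed genes were higher in CDGC1. The zinc finger gene Peg3 was at 156 and 143 FPKM in CDGC1, 46.8 and 28.6 in CDGC6 and 15.3 and 15.6 in control (2.0, adjusted p = 0.000769). Sgce was at 28 and 25.1 FPKM against 6.74 and 7.22 (1.79 ± 0.10, adjusted p = 6.01e-05), and the growth factor Igf2 at 17.4 and 17.1 against 4.29 and 4.71 (1.73, adjusted p = 0.000103), with control at 12.9 and 10.9. An exception among paternally expressed genes was the amino acid transporter Slc38a4, at 0.0565 and 0.0228 FPKM in CDGC1 against 35.4 and 37 in CDGC6 and 66.5 and 62.8 in control (-5.16 ± 0.16, adjusted p = 9.64e-06). Dlk1, Grb10, Phlda2, Peg3 and Igf2 were named after their values were seen, and allele-specific expression was not measured.

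**Figure D4:**
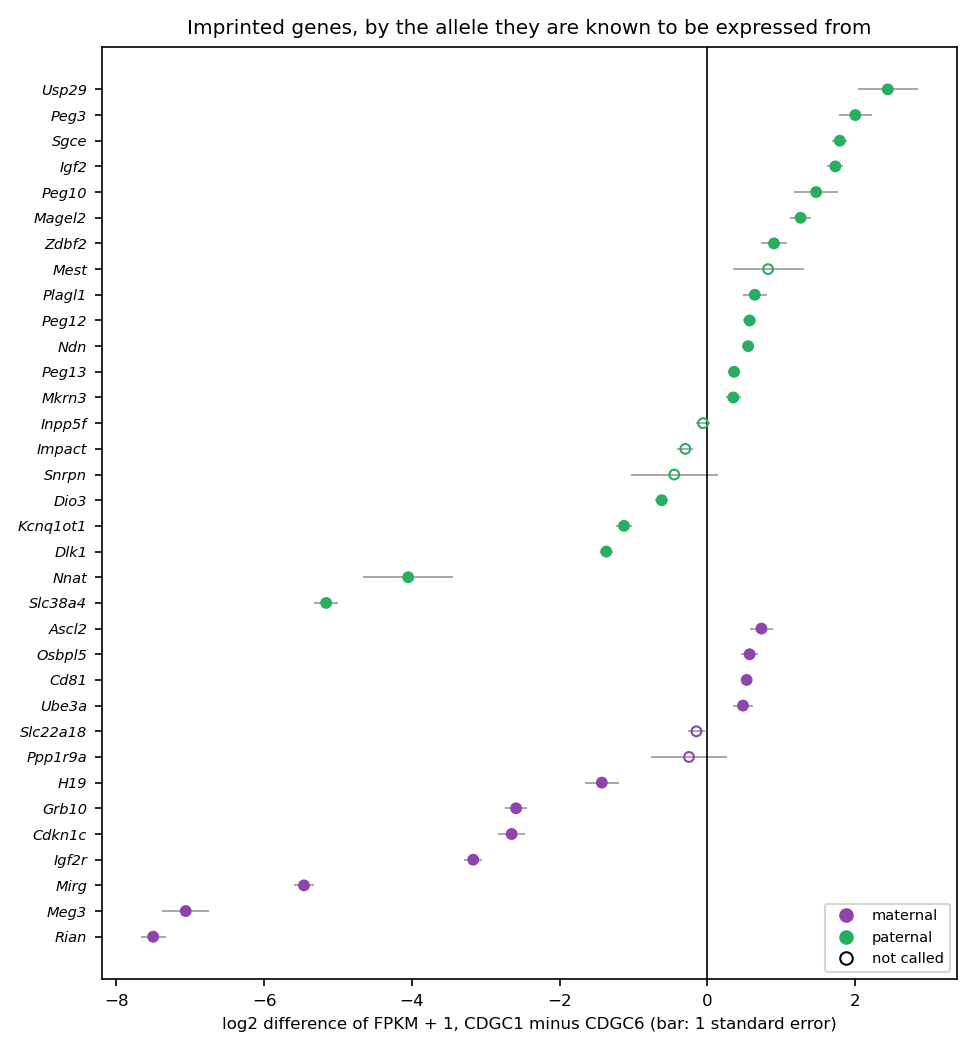
Log2 difference of FPKM + 1 between CDGC1 and CDGC6 (x axis, bar 1 SE, 2 libraries a line) for tested imprinted genes, coloured by the parental copy known to be expressed; Phlda2, listed at 0 in CDGC1, is left out. Maternally expressed genes run from Rian at -7.50 to Ascl2 at 0.73, and most paternally expressed genes lie to the right of 0, with Slc38a4 at -5.16 as the lowest.

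More epithelial genes were lower than higher in CDGC1, and more mesenchymal genes were higher than lower. Of 23 epithelial units 14 were lower and 5 higher (median -0.65), and of 18 mesenchymal units 10 were higher and 3 lower (median 0.86). The shares over all units were 24.1% lower and 23% higher. The tight junction gene Cldn7 (chromosome 11, 69964779 to 69967886) was at 0.0448 and 0.0256 FPKM in CDGC1, 35 and 30.3 in CDGC6 and 27.1 and 28.6 in control (-5.02 ± 0.09, adjusted p = 2.31e-06). Cldn4 was at 2.34 and 2.19 against 59.9 and 60.7 FPKM (-4.23 ± 0.17, adjusted p = 2.04e-05), and the splicing factor Esrp2 was listed at 0 in both CDGC1 libraries, against 4.7 and 3.99 FPKM. E-cadherin, Cdh1, was lower but far from lost, at 81.5 and 76.7 FPKM against 172 and 164 (-1.08 ± 0.06, adjusted p = 8.06e-05). Epcam, an epithelial surface protein named after its values were seen, was at 148 and 169 FPKM against 150 and 135 and did not pass (0.15, adjusted p = 0.202). On the mesenchymal side the intermediate filament gene Vim (chromosome 2, 13568732 to 13582826) was at 899 and 702 FPKM in CDGC1, 122 and 146 in CDGC6 and 112 and 132 in control (2.56 ± 0.15, adjusted p = 8.13e-05). The repressor Zeb1 (1.27 ± 0.09, adjusted p = 0.000161), Twist2 (1.54 ± 0.12, adjusted p = 0.000223) and Tgfb1 (1.40 ± 0.13, adjusted p = 0.000379) were higher, while fibronectin, Fn1 (-1.43 ± 0.14, adjusted p = 0.000502), and the matrix protease Mmp2 (-2.36 ± 0.08, adjusted p = 1.51e-05) were lower.

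Summed levels of markers of other cells were higher in CDGC1 for some lists and lower for others. Fibroblast or feeder markers summed to 273 to 409 FPKM in CDGC1 and 337 to 342 in CDGC6, so that the ranges overlapped. Of 23 tested 5 were higher in CDGC1 and 4 lower (median 0.16), a share called under the 47.2% of all units. Of 19 testis somatic markers measured alone 6 reached 1 FPKM in a line library and 2 were at 0 in all 4. Their sum of 90.6 to 119 FPKM in CDGC1 against 20.4 to 25.7 in CDGC6 was led by Clu, a secreted chaperone with many sources (107 and 81.8 FPKM in CDGC1, on average 16.7 in CDGC6). Of 13 leukocyte markers measured alone only Laptm5 reached 1 FPKM, at 0.208 and 0.413 FPKM in CDGC1 and 9.52 and 12.2 in CDGC6. Trophoblast markers summed to 346 to 533 FPKM in CDGC1 and 240 to 258 in CDGC6, and neural markers to 139 FPKM in both CDGC1 libraries and 235 to 242 in CDGC6. Endoderm markers summed to 539 to 552 and 367 to 395 FPKM. The part of such cells in the results was not tested, and in these bulk samples fewer expressing cells and less RNA per cell cannot be told apart.

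Genes of stress and growth control also differed. Of 24 p53 response units 11 were higher and 5 lower in CDGC1 (median 0.34), against 23% and 24.1% over all units. Against the shared control both lines had more members lower than higher, 10 lower in CDGC1 and 14 in CDGC6, with medians of -0.38 and -0.61. Perp, a p53 target of cell junctions, was at 82.8 and 57.4 FPKM in CDGC1, 15.7 and 17.2 in CDGC6 and 66 and 62.6 in control (2.01 ± 0.16, adjusted p = 0.000267). Mdm2, which limits p53, was at 77.6 and 68, 34.7 and 39.4, and 97.9 and 95.5 FPKM in the same order (0.96 ± 0.10, adjusted p = 0.000678), and Ccng1 at 194 and 145, 65 and 67.6, and 133 and 133 FPKM (1.33 ± 0.14, adjusted p = 0.000619). The proapoptotic gene Pmaip1, also called Noxa, lay on both sides of control, at 44.5 and 41.9 FPKM in CDGC1, 7.63 and 8.12 in CDGC6 and 18.9 and 19.8 in control (2.32 ± 0.10, adjusted p = 2.44e-05). Trp53 itself, named after its values were seen, was at 213 and 197 FPKM against 188 and 187 and did not pass (adjusted p = 0.131). Among 19 G1 cyclins and CDK inhibitors 3 were higher and 7 lower (median -0.36), a share called near that of all units. The inhibitor Cdkn1a was higher (71.2 and 52.4 against 24.8 and 28.2 FPKM, 1.18 ± 0.16, adjusted p = 0.00177), as was the kinase Cdk4 (0.67 ± 0.08, adjusted p = 0.00112), and Mycn was lower (38.8 and 31.6 against 99.4 and 106 FPKM, -1.53 ± 0.12, adjusted p = 0.000196).

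In the glycolysis and hypoxia list, 2 of 31 units were higher and 8 lower in CDGC1 (median -0.10), and of 28 units of oxidative phosphorylation subunits and regulators, 2 of which are also on the core pluripotency list, 4 were higher and 4 lower (median -0.04). The shares called, 10 of 31 and 8 of 28, are under the 47.2% of all units. The lactate dehydrogenase subunit Ldhb was at 47.8 and 45.9 FPKM in CDGC1, 247 and 243 in CDGC6 and 124 and 129 in control (-2.36 ± 0.06, adjusted p = 5.79e-06). Bnip3, a hypoxia target of mitophagy, was at 16.9 and 22.7 against 76.3 and 59.1 FPKM (-1.73 ± 0.19, adjusted p = 0.00072), with control at 26.8 and 23.2. Interferon and MHC class I genes had 9 of 21 units higher and 3 lower (median 0.61), against 23% and 24.1% over all units. Isg15, a ubiquitin-like interferon target, was at 40.9 and 51.2 FPKM in CDGC1, 8.94 and 7.58 in CDGC6 and 2.96 and 3.64 in control (2.34 ± 0.15, adjusted p = 9.5e-05). The joint unit of the immunoproteasome and peptide transporter genes Psmb8 and Tap2 was at 165 and 186 FPKM against 30.1 and 21.2 (2.75 ± 0.17, adjusted p = 9.44e-05). Genes of the 2-cell-like state, most with near-identical copies so that single values are uncertain, had 10 of 16 tested units lower and none higher (median -0.73). Zscan4f was at 0.00721 and 0.0232 FPKM in CDGC1, 2.71 and 4.66 in CDGC6 and 10.3 and 9.08 in control (-2.17 ± 0.20, adjusted p = 0.000424). Both lines were below control for it, CDGC1 the more so.

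The 15 largest gains in CDGC1 came from several functions. Tex13, an X-linked testis gene, was at 17 and 40.1 FPKM in CDGC1 against 0.0787 and 0.106 in CDGC6 (4.64 ± 0.35, adjusted p = 0.000186). Apln, the apelin peptide ligand (chromosome X, 48025146 to 48034899), was at 62.7 and 62.3 FPKM in CDGC1, 5.19 and 4.7 in CDGC6 and 1.63 and 1.8 in control (3.42 ± 0.09, adjusted p = 5.99e-06). Igfbp3, which binds insulin-like growth factors, was at 770 and 498 FPKM against 94.6 and 64.8 (2.97 ± 0.24, adjusted p = 0.000254). The rule that named these 3 genes required that the libraries of the lines do not overlap. The retinoic acid-degrading enzyme Cyp26a1 (43.3 and 63.4 against 8.38 and 6.1 FPKM, 2.71 ± 0.26, adjusted p = 0.000503) and the homeobox gene Six2 (8.02 and 9.29 against 0.405 and 0.344 FPKM, 2.81 ± 0.10, adjusted p = 1.39e-05) were in the same group. Pla2g7, Klhl4, Shisa3, Nefm, Gbp3, Mogat2, Cxx1c, Ucma, Nab2 and Wnt3 made up the rest, with log2 differences from 2.62 to 3.75. Among the 15 largest losses, besides those already given, were Rps4l, a ribosomal protein gene of the mouse (0.238 and 0.346 against 306 and 356 FPKM, -8.00 ± 0.09, adjusted p = 8.49e-07), and Pla2g1b, a secreted phospholipase (0.404 and 0.244 against 111 and 126 FPKM, -6.50 ± 0.34, adjusted p = 4.94e-05). Morc1, a germline silencing factor, was at 0.037 and 0.0696 FPKM against 39.4 and 60.8 (-5.57 ± 0.20, adjusted p = 1.59e-05), and the noncoding RNA Platr10 (-5.27) and Triml2 (-5.09) were lower as well.

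Exact zeros gave a separate group. In 9 units both CDGC6 libraries were listed at 0 and both CDGC1 libraries at 5 FPKM or more, and in 26 it was the reverse. Of the 5 with the highest level on each side, Spcs1 was at 77.6 and 84.3 FPKM in CDGC1 and listed at 0 in CDGC6 and control, and Pigp was listed at 0 in CDGC1 and at 54.5 and 72.4 FPKM in CDGC6. Spcs1, Cand2, Gadd45gip1, Lnx1, Tor1aip1, Dalrd3, Pigp, Rmnd5b and Sycp3 lie at loci that overlap another gene. Rbmxl2, a germline RNA-binding protein gene, overlaps none and was listed at 0 in CDGC1, at 25.6 and 35.5 FPKM in CDGC6 and at 37.3 and 41.1 in control. The highest genes at like levels in the lines were Rpl41, Rps2, Rps12 and Rpl23a of the ribosome and the chaperone Hspa8, with differences from -0.14 to 0.18. Of Y-linked genes Kdm5d, a histone demethylase, was at 4.82 and 5.42 FPKM in CDGC1 and at 0.0229 and 0.011 in CDGC6, close to the 0.012 and 0.0175 of control (2.59 ± 0.08, adjusted p = 1.12e-05). Ddx3y, Uty and Eif2s3y were at 6.98 FPKM or more in all 4 libraries. Xist, the RNA that silences an X chromosome in females, was under 0.4 FPKM in all 4 and was not tested.

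Position along the chromosomes went with the difference between the lines. The 10 Mb windows and the regions below were chosen after the values were seen, so they are described without a test. Of 214 windows with at least 20 units, 17 had a median of at least 0.25 and 12 had a median of -0.25 or lower, over a range of -0.58 to 1.01, and 14 of the 17 lay on chromosomes 11, 2, 10 and X. In the first 60 Mb of chromosome 11, which hold Igfbp3, 162 of 278 units were higher and 26 lower in CDGC1, 75.5% lay above 0 and the median was 0.51. The remainder of that chromosome had a median of 0.05 over 679 units. Against control the first 60 Mb had medians of 0.47 and 0.44 in the CDGC1 libraries and -0.02 and -0.04 in the CDGC6 libraries, so that both libraries of CDGC1 and neither of CDGC6 were raised. The first 40 Mb of chromosome 2, where Vim lies, had a median of 0.34 (118 of 246 units higher, 24 lower). The next windows had higher medians, 1.11 from 40 to 50 Mb (9 of 9 units higher, under the minimum of 20 units) and 1.01 from 50 to 60 Mb (17 of 24 higher, 3 lower), where both CDGC1 libraries were above control by 1.14 and 1.10. The median was -0.03 from 60 to 170 Mb of this chromosome and -0.40 from 170 Mb to the end. Chromosome 10 from 90 to 130 Mb had a median of 0.30 (71 of 164 higher, 20 lower), against 0.05 before it. Its windows were uneven, at 0.52, 0.45 (13 units) and 0.51 up to 120 Mb and at 0.13 (86 units) from there to 130 Mb. Chromosome X up to 60 Mb had a median of 0.35 (67 of 139 higher, 22 lower), against 0.10 beyond, with single windows from 0.02 to 0.48. DNA copy number and passage-related change were not analysed here, and their part in these medians was not tested. The gene lists above were not split by position. The part of these regions in the list counts and in the named members was not tested.

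**Figure D5:**
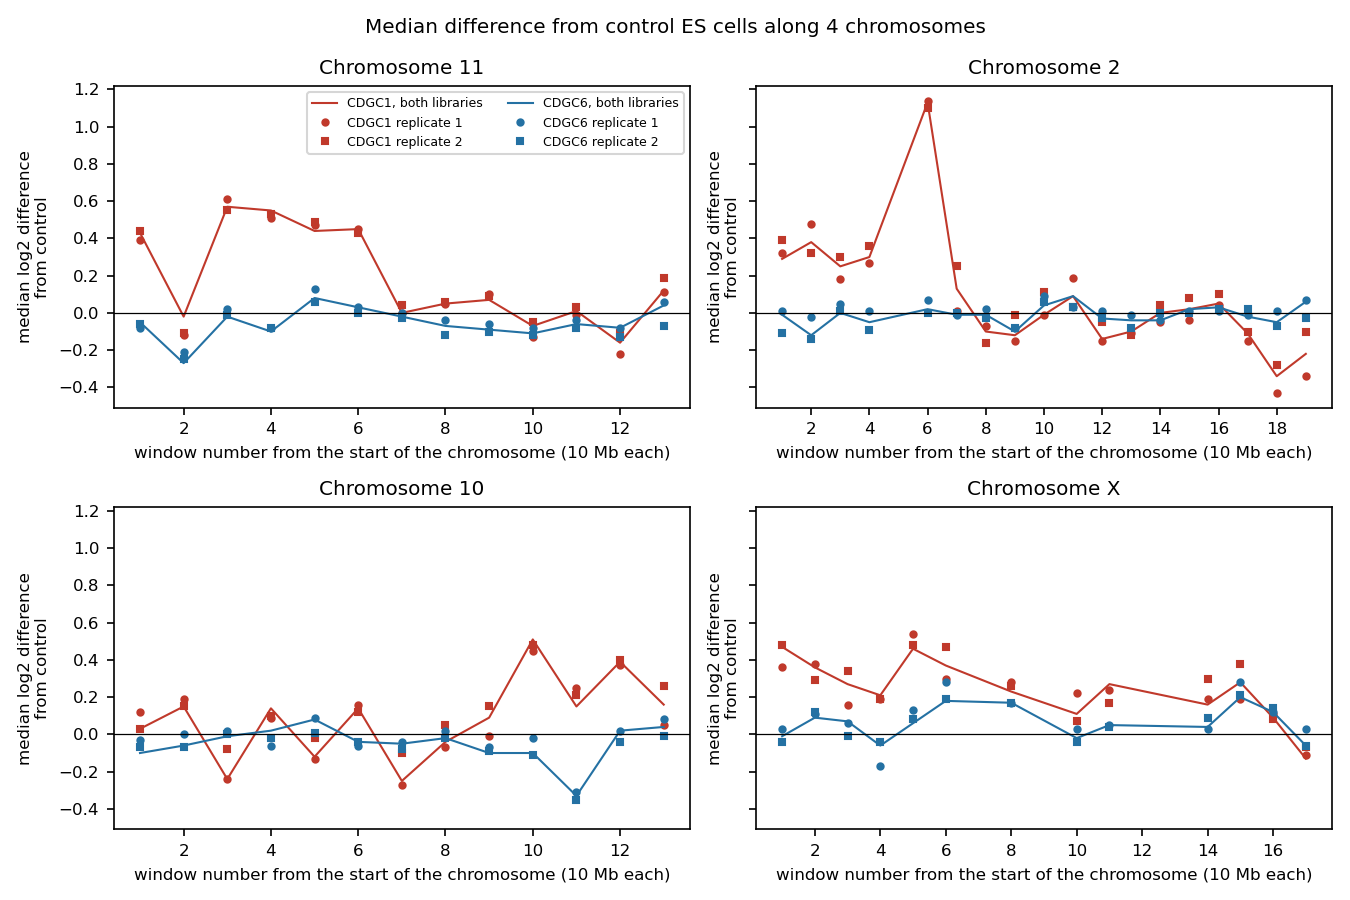
Median log2 difference of FPKM + 1 from the control mean (y axis) in 10 Mb windows with at least 10 tested units along chromosomes 11, 2, 10 and X (x axis, window number), for the mean of each line (lines) and its single libraries (points). CDGC1 is raised over the first 6 windows of chromosome 11 except the second, and CDGC6 stays near 0 there.

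A region of chromosome 13 stood higher in CDGC6. From 20 to 30 Mb the median of 72 units was -0.36 between the lines, with CDGC6 at 0.57 above control in its first library and 0.55 in the second. The CDGC1 libraries there were at 0.14 and 0.15 above control and the Dnd1-KD libraries at 0.22 and 0.32. Of these units 44 are histone genes, whose median was -0.56 between the lines, 0.86 in CDGC6 against control and 0.27 in CDGC1 against control. The 28 other units there had a median of -0.08 between the lines. Most of the histone transcripts of this cluster are known to lack a poly(A) tail, and the share of such RNA in each library was not measured.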

How the data were processed

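RNA-seq libraries were made with TruSeq RNA v2 kits and run on a HiSeq2500, per the labels' protocols. The tools TopHat2, Bowtie, Cufflinks and Cuffdiff and the build mm10 come from the submitters' processing notes, with no version given in the sources used here. The deposited values are FPKM with an interval, 1 Cufflinks gene table for each library, per the file headers. Small RNA genes were left out, and so were entries that name no gene, which made up between 76.8% and 85.6% of a library's FPKM sum.

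FPKM was summed per gene symbol, and symbols joined in any library formed 1 unit throughout (762 of 21991). GENCODE vM21 served to restore 25 gene names that a spreadsheet had turned into dates. A unit was tested if 2 or more of the 8 libraries reached 1 FPKM, which left 11891. The test used log2(FPKM + 1), which understates the change of low genes. limma 3.58.1 in R 4.3.3 estimated a mean for each of the 4 groups (trended eBayes, two-sided), and every adjusted p is its Benjamini-Hochberg value, judged at 0.05. The tables hold no read counts, so fragments were derived from the intervals, and depth limits the precision of low values. The scripts were tested on simulated data. Python 3.11.15, pandas 2.3.3, numpy 2.4.6 and matplotlib 3.10.9 were used.

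The members and the 29 gene lists were chosen with earlier results of these data known. Named genes are the 15 largest calls each way (1 symbol, no overlap of libraries, at least 5 FPKM in the higher line, no library of the lines at 0), up to 5 each way listed at 0 in a line, up to 6 per list by smallest p, 6 fixed genes (Pou5f1, Sox2, Nanog, Dnd1, Xist, Kdm5d) and the 5 highest genes that are alike. Others are marked in the text, and 1 gene that the rule names is not reported here. The parental-copy split, windows, regions and motifs were chosen after the values were seen. Promoters came from RefSeq (GRCm38.p6). The alternatives were pseudocounts of 0.1 and 5, other filters, quantile and median-ratio scaling, only the lines in the fit, a replicate block, eBayes without trend, other ways to sum or drop units, a minimum fold of 2, and leaving out single libraries.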

Additional observations from a re-analysis of the deposited data

Results flagged for a closer look

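For 6 named genes each line was called against the shared control with at least a 2-fold change, but in opposite directions, and the difference between the lines was tested in the same limma fit. Rian, a maternally expressed RNA, had a log2 difference between the lines of -7.50, with CDGC1 at -5.33 and CDGC6 at 2.17 against control. Dppa3, a germ cell and oocyte gene, had -5.66 between the lines, with -4.37 and 1.29 against control. Platr10, a noncoding RNA of pluripotent cells, had -5.27, with -4.21 and 1.06. Pfkp, a phosphofructokinase, was at 5.45 and 7.1 FPKM in CDGC1 and 61.2 and 36.8 in CDGC6 (-2.75), with control at 23 and 21.4. In the other direction Nefm, a neurofilament gene, had 2.89 between the lines, with 1.64 and -1.25 against control, and Pmaip1 had 2.32, with 1.12 and -1.20. The values against control share the control libraries.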

How the results depend on the processing

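With 2 libraries a line, limma's spread rests on 8 libraries in all, and each line is 1 derivation. Of 192 named genes 176 were called, and 160 of these kept direction and call under all alternatives other than the 2-fold minimum. Many of them were named for a large difference or a small p, so these counts do not describe all genes. Of all units 47.2% were called. The number of genes that differ between CDGC1 and CDGC6 ran from 4466 (without CDGC6 replicate 2) to 5717 (without CDGC1 replicate 2) when single libraries were left out, and was 3996 with only the lines in the fit. A 2-fold minimum left 1661, 624 higher and 1037 lower, and with a filter of 5 FPKM the number of genes lower in CDGC1 was 1895. With the replicate number as a block 5367 were called. Over all units the replicate differences of the lines did not correlate (0.00), which cannot show whether the replicate numbers mark a shared batch. Under quantile normalization Gata4 (0.26) and Tbx4 (0.11) changed sign and lost their call. The median of chromosome 11 was 0.26 among units of at least 5 FPKM in each line library, and its first 60 Mb were at 0.53. The median of chromosome X was 0.23 with quantile normalization, 0.19 with the 5 FPKM minimum and 0.16 to 0.19 with a library left out, and its first 60 Mb were at 0.40, 0.40 and 0.31 to 0.33. The first 40 Mb of chromosome 2 were at 0.39, 0.39 and 0.32 to 0.38. The causes were not tested.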

Other observations

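Members of the trophoblast and neural lists were called about as often in either direction. Of 20 listed trophoblast genes 16 were tested, 5 higher and 6 lower in CDGC1 (median -0.19). The X-linked homeobox gene Rhox5 was at 3.18 and 3.33 FPKM in CDGC1, 76.7 and 101 in CDGC6 and 52.1 and 49.2 in control, with both CDGC1 libraries below all the others. Of 23 listed neural ectoderm genes 11 were tested, 4 higher and 5 lower (median -0.16). The neuronal tubulin gene Tubb3 was lower in CDGC1 (-2.23), as was the hindbrain boundary factor Gbx2 (-1.70), and the midbrain factor En1 was higher (2.24). These shares of called units are above the 47.2% of all units, without a test.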
